A study of Mus musculus with 6 samples.

Results

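The 40 genes described here are listed as markers of endothelial cells and endocardium, the endothelial layer that lines the heart. They were taken from the deposited table by symbol, and 39 of the 40 have a row among its 15330 genes. The symbol Robo4os, the antisense partner of Robo4, matched no row and was not analysed here. Bulk RNA-seq was done on dissected mouse hearts of embryonic day 9.5, with 3 libraries for each of 2 groups: wild-type, and homozygous H2-URI d/d, a CRISPR-Cas9 deletion of 373 kb that runs from a predicted domain anchor far upstream to Uph, the long non-coding RNA gene next to Hand2. Hand2 encodes a transcription factor needed for heart development. In each group replicates 1 and 2 carry the letter F and replicate 3 the letter M, read here as female and male, and all 6 libraries carry batch number 1. The sources used here do not give the strain, litter, founder line or number of hearts per library, and p-values therefore speak to the spread among these 6 libraries, which may be technical. The deletion is not limited to a cell type and endothelial cells were not sorted, so in these bulk samples fewer endothelial cells and less RNA per endothelial cell cannot be told apart. Nor do bulk samples show whether a listed gene was also expressed in other cells of the heart.

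Endothelial cells hold together through adherens junctions built on VE-cadherin and tight junctions built on claudin-5, and they carry surface sialomucins and adhesion receptors such as Pecam1. In the embryo their identity is kept by ETS factors and by the SoxF factors Sox7, Sox17 and Sox18. Endothelial cells also carry receptors for VEGF, angiopoietin, apelin, adrenomedullin and sphingosine-1-phosphate. The endocardium shares these genes, expresses Nfatc1, and gives rise to cushion mesenchyme.

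In deletion hearts Pecam1 and Cdh5, general endothelial markers, differed from wild-type by less than the spread of the libraries, while other endothelial genes moved in both directions. Values are normalized counts, reads divided by a size factor for each library, and limma is a linear model fitted across all genes on log2(normalized count + 1), with p-values adjusted over all 15330 genes. Of the 39 measured genes, 4 fell (Nostrin, Ramp2, Icam2 and Gpr182) and 6 rose (Cldn5, Aplnr, Ptprb, Sox7, Vwf and Cd34) at an adjusted p under 0.05 in limma. Among the 10, Nostrin fell furthest, to 22.5% of the wild-type mean, and Cldn5 rose furthest, to 223%. The 10 calls are 25.6% of the measured genes, where limma called 3.05% of all genes, 1.5% lower and 1.55% higher. edgeR's quasi-likelihood test on the recovered reads called the same 10 genes in the same directions, against 3.26% of all genes (1.51% lower and 1.75% higher). DESeq2 called 8 lower and 8 higher, against 7.43% (3.91% lower and 3.52% higher), and the 10 genes were among them. At an unadjusted p under 0.05 in limma, 11 of the 39 genes were lower and 11 higher, where 21.4% of all genes passed (11.2% lower and 10.2% higher). The median log2 fold change was 0.02 over the 39 genes and −0.0073 over all genes, and the median of its size, sign left aside, was 0.31 and 0.14. The genes were chosen with earlier results of these data known, so these shares describe the list and are no test of it. Summed markers of cushion mesenchyme stood at 54.2% of the wild-type mean and those of epicardium at 162%, both without overlap of the groups. Single genes of both lists went the other way, 2 of 9 and 1 of 8. The part of these cells in the endothelial values was not tested.

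**Figure D1:**
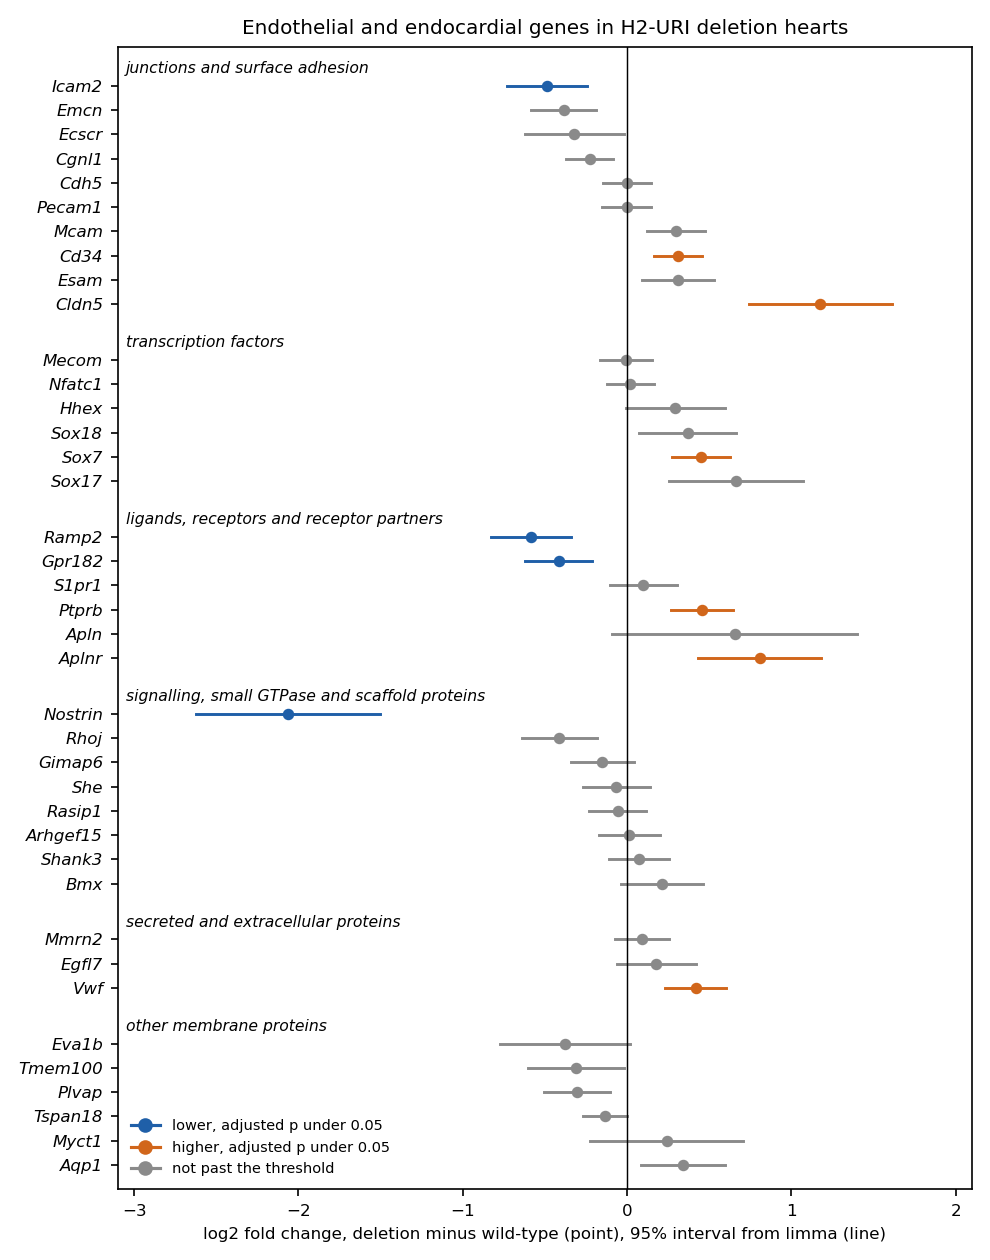
Log2 fold change of the 39 measured genes, deletion minus wild-type, on the horizontal axis, with genes on the vertical axis grouped by role; points are estimates and lines 95% intervals from limma, and colour marks the 4 lower and 6 higher genes. Pecam1 and Cdh5 sit at 0, Nostrin lies at −2.06 and Cldn5 at 1.18.

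Columns were assigned to samples through the codes that the sample titles share with the headers. The files recorded for replicates 1 and 2 of both groups carry codes of the other group, and under that record limma called none of the 39 genes (0 also at an unadjusted p under 0.05, where 2.7% of all genes passed) and 0.0% of all genes. Code and record name the same library for replicate 3, where Nostrin stood at 54.0 normalized counts in wild-type and 12.96 in the deletion and Cldn5 at 70.5 and 199. Hand2 itself, as a check of the genotype, averaged 4036 ± 328 in the wild-type libraries against 1115 ± 78.3 without the interval (SD, n = 3). The libraries held 25583210 to 32043595 reads. Wild-type replicate 2 stood apart on the first principal component (41.2% of the variance), with a score of −3.79 against −19.8 and −19.1 for replicates 1 and 3 and 10.9 to 18.6 for the deletion. It was the lowest wild-type library for 25 of the 39 genes.

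Promoter sequence is shown for the genes at the ends of the range. Among the pair that fell furthest and the pair that rose furthest, RefSeq's promoter table on GRCm38.p6 held Nostrin and Cldn5. The 250 bases before each annotated start are printed 5′ to 3′ on the strand of the gene, plus in both cases, and capitals mark matches to any of 6 short motifs searched on both strands: CGGAAG and AGGAAG of ETS factors, AGATAA of GATA factors, ACAAAG and ACAATG of SOX factors, and the E-box CATCTG. The pair of ETS motifs cannot match at one position, but neighbouring matches of any of the motifs can share letters at their ends.
Nostrin, chr2:69135550-69135799: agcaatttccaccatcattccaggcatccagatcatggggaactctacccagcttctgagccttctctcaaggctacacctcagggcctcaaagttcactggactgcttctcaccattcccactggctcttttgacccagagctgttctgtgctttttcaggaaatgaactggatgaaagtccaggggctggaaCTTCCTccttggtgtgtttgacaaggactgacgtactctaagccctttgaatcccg
Cldn5, chr16:18776597-18776846: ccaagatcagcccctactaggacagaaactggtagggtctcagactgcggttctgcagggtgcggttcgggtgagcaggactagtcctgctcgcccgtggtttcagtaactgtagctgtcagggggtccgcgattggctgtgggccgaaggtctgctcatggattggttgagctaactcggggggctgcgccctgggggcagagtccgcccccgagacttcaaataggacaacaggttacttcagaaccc
The Nostrin window held 1 match, AGGAAG read on the opposite strand and beginning 56 bases before the start, and the Cldn5 window had no match. Over all 32851 RefSeq promoters of this length, 29.5% held AGGAAG, 13.6% CGGAAG, 9.99% AGATAA, 16.5% ACAAAG, 10.7% ACAATG and 14.4% CATCTG. The table held 22 promoters of 19 of the 39 genes, of which 10 held AGGAAG, 3 CGGAAG, 1 AGATAA, 3 ACAAAG, 1 ACAATG and 3 CATCTG. A match describes the letters in the window and is not a bound site.

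Junction and adhesion genes moved in both directions. Of 10, limma called 1 lower (Icam2) and 2 higher (Cldn5 and Cd34), as it did 1.5% and 1.55% of all genes. The median log2 fold change of the 10 was −0.0019. Cdh5, which encodes VE-cadherin, the core of the endothelial adherens junction, stood at 4552, 4055 and 4177 normalized counts in wild-type libraries 1 to 3 and 4368, 4151 and 4232 in deletion libraries 1 to 3. Pecam1, the homophilic adhesion receptor of endothelial contacts, stood at 2448, 2372 and 2597 against 2391, 2396 and 2624, given like all such values with wild-type before deletion and in the order of the replicates. The groups overlapped for both genes, and the 95% interval of the log2 fold change ran from −0.15 to 0.14 for Cdh5 and from −0.15 to 0.15 for Pecam1.

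Cldn5, the main claudin of endothelial tight junctions, was at 106, 65.8 and 70.5 normalized counts in the wild-type libraries and 173, 168 and 199 in the deletion libraries. The lowest deletion library was above the highest wild-type library, which was replicate 1. The means were 80.6 ± 21.7 and 180.0 ± 16.4 (SD, n = 3; log2 fold change 1.18, SE 0.19, adjusted p = 0.0156, limma), and the reads behind them were 93, 74 and 77 against 164, 181 and 184. Cd34, a sialomucin of endothelium and blood progenitors, had 1827, 1851 and 1956 against 2457, 2251 and 2284. Each deletion library exceeded each wild-type library, and the mean rose from 1878 ± 68.2 to 2331 ± 111 (log2 fold change 0.31, SE 0.0648, adjusted p = 0.0363, limma).

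Icam2, an immunoglobulin-type ligand of leukocyte integrins that endothelium makes at rest, had 889.9, 696 and 906 normalized counts in wild-type and 613, 587 and 566 in deletion libraries. Wild-type replicate 2 lay closest to the deletion group, without overlap. The mean fell from 831 ± 117 to 589 ± 23.7 (n = 3, SD; log2 fold change −0.49, SE 0.11, adjusted p = 0.0444, limma). The sialomucin gene Emcn, typical of venous endothelium and endocardium, had 1329 ± 111 and 1017 ± 84.3 with no overlap and missed the threshold (log2 fold change −0.39, SE 0.0885, adjusted p = 0.0505, limma). DESeq2 called Emcn lower (adjusted p = 0.00704, DESeq2). The remaining junction genes did not pass in limma, and DESeq2 called Mcam higher and Cgnl1 lower. Of all genes, DESeq2 called 3.52% higher and 3.91% lower. Cgnl1, which encodes the junction plaque protein paracingulin, had the highest count of the list with 11729, 12366 and 12412 against 10598, 10676 and 9901, a log2 fold change of −0.23. Mcam (CD146) had 0.30, the tight-junction adhesion gene Esam 0.31 and Ecscr, an endothelial surface protein of cell migration, −0.32. The groups did not overlap for Cgnl1, Mcam and Esam, and overlapped for Ecscr.

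**Figure D2:**
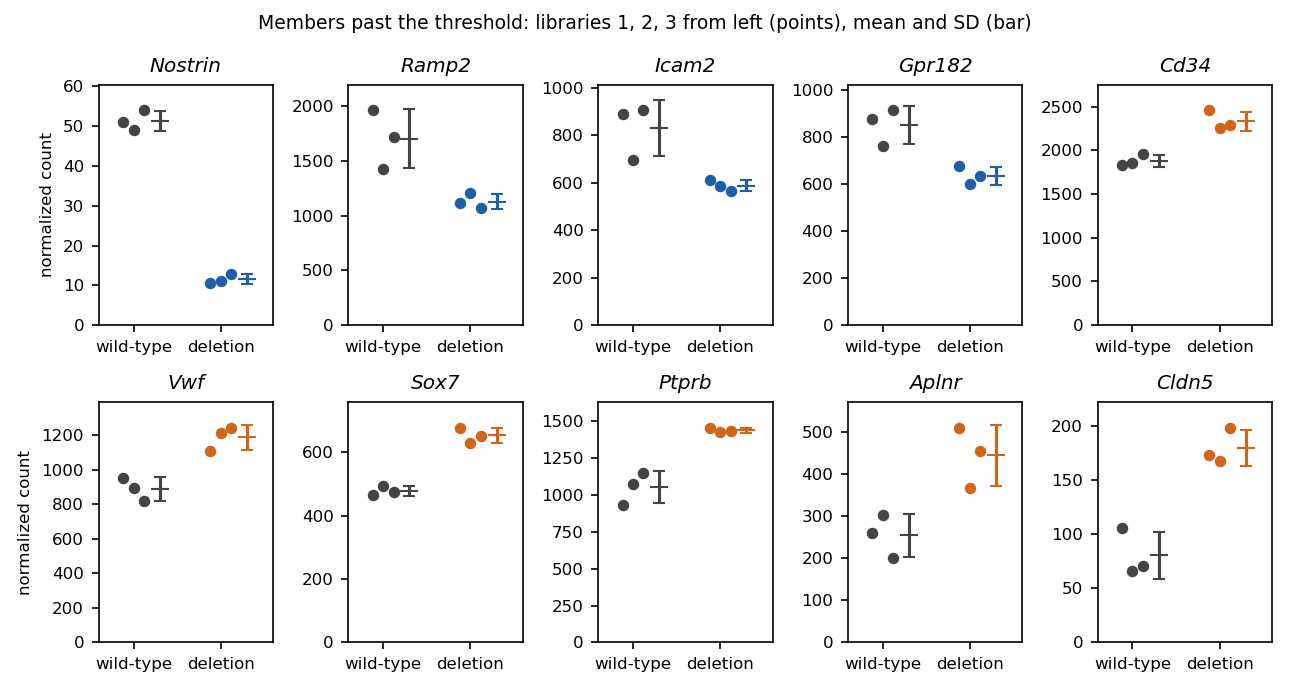
Normalized counts (vertical axes, from 0) of the 10 genes past the threshold in the 3 wild-type libraries (grey) and the 3 deletion libraries (blue where lower, orange where higher); points are libraries and bars the mean and SD. The groups do not overlap in any panel, and Nostrin has the lowest counts of the 10.

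Among 6 transcription factor genes limma called 1 higher, Sox7, and 0 lower, as it did 1.55% and 1.5% of all genes. In edgeR too, Sox7 was the only call. At an unadjusted p under 0.05 in limma, 3 were higher and 0 lower (all genes: 10.2% and 11.2%). DESeq2 called 2 higher and 0 lower (all genes: 3.52% and 3.91%). Sox7, a SoxF factor of early endothelium, was at 464, 494 and 476 normalized counts in wild-type and 679, 631 and 651 in deletion libraries. The spread within each group was small beside the gap between them, and the mean rose from 478 ± 14.9 to 654 ± 23.8 (SD, n = 3; log2 fold change 0.45, SE 0.0790, adjusted p = 0.0191, limma). The SoxF relatives did not pass in limma and lay without overlap on the same side. Sox17, the family member linked to arterial endothelium, had 143, 104 and 93.3 against 178, 199 and 158 (log2 fold change 0.66, SE 0.18, adjusted p = 0.0787, limma). Sox18, active in vascular and lymphatic endothelium, had 404, 298 and 387 against 438, 520.0 and 443 (log2 fold change 0.37, SE 0.13, adjusted p = 0.146, limma).

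Nfatc1, a calcineurin-dependent factor of endocardium, had 1524, 1561 and 1655 normalized counts in wild-type and 1640, 1617 and 1549 in deletion libraries. The interval of its log2 fold change ran from −0.12 to 0.16. Mecom, a zinc-finger factor of endothelium and blood stem cells, had 1570, 1429 and 1579 against 1449, 1526 and 1577, with an interval from −0.16 to 0.15. The groups overlapped for both. The homeobox gene Hhex had a log2 fold change of 0.29 (interval −0.0090 to 0.59).

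Receptors and their partners held 4 of the 10 calls. Of 6 such genes limma called 2 lower (Ramp2 and Gpr182) and 2 higher (Aplnr and Ptprb), as it did 1.5% and 1.55% of all genes. Ramp2, the accessory protein that makes the calcitonin-receptor-like receptor respond to adrenomedullin, stood at 1964, 1429 and 1721 normalized counts in wild-type and 1112, 1203 and 1067 in deletion libraries. Wild-type replicate 2 was the lowest of its group and still above the deletion libraries, and the mean fell from 1705 ± 268 to 1128 ± 69.4 (n = 3, SD; log2 fold change −0.59, SE 0.11, adjusted p = 0.0247, limma). Gpr182, an atypical chemokine receptor of endothelium, stood at 875, 761 and 912 against 674, 598 and 633. Again wild-type replicate 2 was the closest to the deletion group (849 ± 79.1 against 635 ± 38.3; log2 fold change −0.42, SE 0.0918, adjusted p = 0.0433, limma).

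Aplnr, the apelin receptor, was at 259.9, 302 and 201 normalized counts in wild-type and 511, 368 and 455 in deletion libraries. Each deletion library exceeded each wild-type library, with a wide spread in both groups, and the mean rose from 255 ± 50.8 to 444 ± 72.1 (SD, n = 3; log2 fold change 0.81, SE 0.17, adjusted p = 0.0353, limma). Its ligand gene Apln was near the lower end of the list, at 51.1, 55.2 and 24.7 against 54.9, 55.7 and 91.8. The groups overlapped, and it did not pass (log2 fold change 0.66, SE 0.33, adjusted p = 0.289, limma). Ptprb encodes VE-PTP, the phosphatase that acts on Tie2 and VE-cadherin. It had 934, 1076 and 1149 against 1459, 1427 and 1435, with the deletion libraries close together, and the mean rose from 1053 ± 109 to 1440 ± 16.4 (log2 fold change 0.46, SE 0.0836, adjusted p = 0.0223, limma). S1pr1, the receptor for sphingosine-1-phosphate, had 2291, 2328 and 2891 against 2741, 2591 and 2670, which overlapped (log2 fold change 0.10, SE 0.0904, adjusted p = 0.565, limma).

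Of 8 genes of signalling, small GTPases and scaffolds, limma called 1 lower, Nostrin, as it did 1.5% of all genes. Nostrin encodes a trafficking protein that binds endothelial nitric oxide synthase. It stood at 51.1, 48.9 and 54.0 normalized counts in wild-type and 10.6, 11.1 and 12.96 in deletion libraries, from 45, 55 and 59 against 10, 12 and 12 reads. All 3 deletion libraries lay far below the wild-type libraries, and the mean fell from 51.3 ± 2.54 to 11.6 ± 1.25 (n = 3, SD; log2 fold change −2.06, SE 0.25, adjusted p = 0.00373, limma). The other 7 did not pass in limma. Of these DESeq2 called Rhoj lower (adjusted p = 0.0292, DESeq2), as it did 3.91% of all genes. Rhoj had 425, 388 and 469 against 318, 312 and 330.5 without overlap (log2 fold change −0.41, SE 0.10, adjusted p = 0.0601, limma). Shank3, a scaffold protein, had 1019, 1085 and 1133 against 1147, 1224 and 1039, and Rasip1, a Ras-binding protein needed for vessel lumens, 896, 879 and 923 against 920.4, 879 and 797; the groups overlapped for both. The log2 fold changes were 0.073 for Shank3, −0.057 for Rasip1, 0.013 for Arhgef15, −0.065 for the adaptor She, −0.15 for the GTPase Gimap6 and 0.21 for the Tec-family kinase Bmx.

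Of 3 secreted proteins limma called 1 higher, Vwf, as it did 1.55% of all genes. Vwf, von Willebrand factor, is made by endothelium and megakaryocytes and binds platelets. It was at 955, 896 and 816 normalized counts in wild-type and 1107, 1211 and 1244 in deletion libraries, without overlap (889 ± 69.4 against 1187 ± 71.4, SD, n = 3; log2 fold change 0.42, SE 0.0829, adjusted p = 0.0303, limma). Egfl7, a matrix protein deposited by growing vessels, had 1337, 1068 and 1014 against 1327, 1344 and 1177, with wild-type replicate 1 among the deletion values (log2 fold change 0.18, SE 0.11, adjusted p = 0.376, limma). Mmrn2, a matrix protein of the vessel wall, had a log2 fold change of 0.092.

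The 6 other membrane proteins had no call in limma or edgeR. At an unadjusted p under 0.05 in limma, 3 were lower and 1 higher (all genes: 11.2% and 10.2%). DESeq2 called 1 lower and 0 higher (all genes: 3.91% and 3.52%). Plvap, which forms the diaphragms of caveolae and fenestrae, had 3000, 2328 and 2710 normalized counts in wild-type and 2207, 2175 and 2096 in deletion libraries, without overlap (log2 fold change −0.30, SE 0.0895, adjusted p = 0.0956, limma). The tetraspanin gene Tspan18 had 5002, 5135 and 5129 against 4848, 4471 and 4600, also without overlap, at a log2 fold change of −0.13. The water channel gene Aqp1 had 0.34, Tmem100, a target of the Alk1 receptor, −0.31, Eva1b −0.38 and Myct1 0.24. Over the 29 genes that limma did not call, the groups of libraries did not overlap for 13, 6 of them lower and 7 higher in the deletion. With the called genes this makes 10 lower and 13 higher, 23 of 39 or 59.0%, where 27.4% of all genes had groups that did not overlap (14.5% lower and 12.9% higher).

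**Figure D3:**
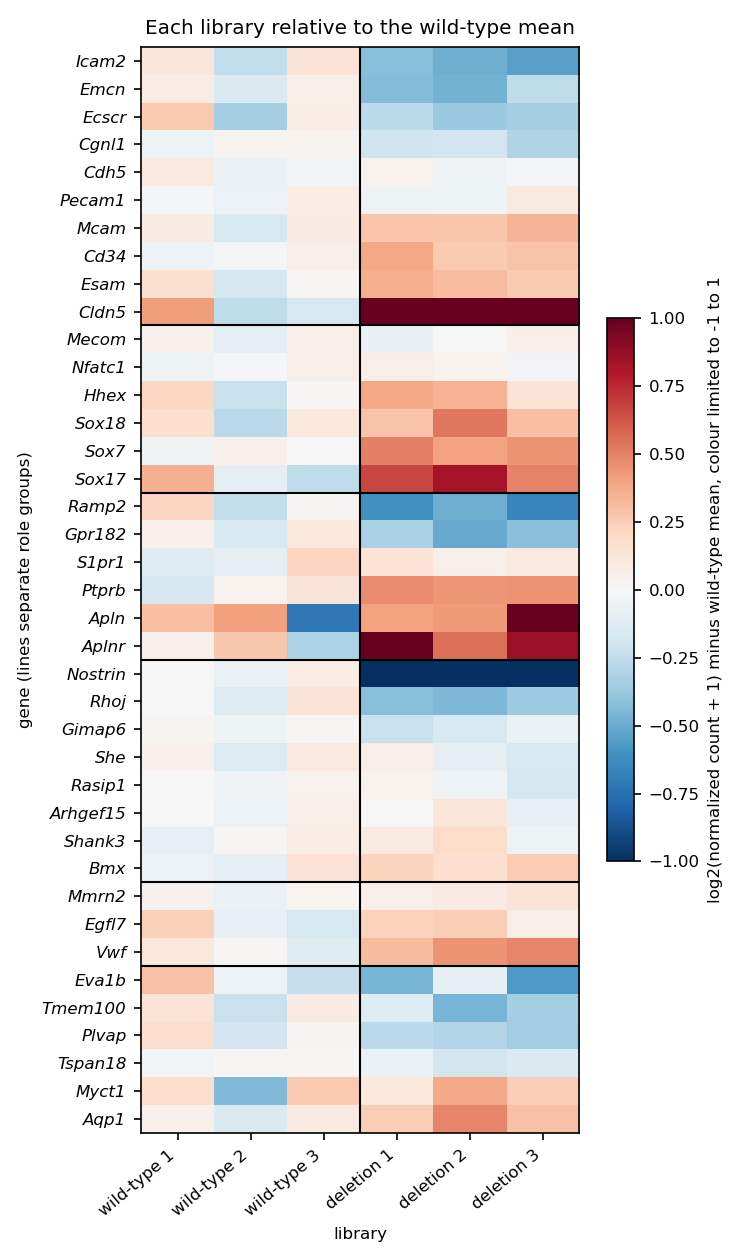
Colour gives log2(normalized count + 1) of each of the 39 genes (rows, grouped by role) in each of the 6 libraries (columns) minus the wild-type mean of the gene, limited to −1 to 1. The rows of Nostrin and Cldn5 differ most between the groups, and wild-type 2 is often the lowest of its group.

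Nostrin passed in limma with each library left out in turn, at adjusted p values from 0.00930 to 0.0234 and log2 fold changes from −2.14 to −2.01. The other 9 kept their direction but each lost its call in at least 3 of the 6 fits. The highest adjusted p among these fits was 0.0739 for Cldn5, 0.103 for Ptprb, 0.104 for Ramp2, 0.105 for Sox7, 0.133 for Aplnr, 0.148 for Vwf, 0.167 for Cd34, 0.170 for Icam2 and 0.188 for Gpr182. Without wild-type replicate 1 there were 3 lower and 9 higher, against 4.02% of all genes called. Without wild-type replicate 2 there were 8 lower and 6 higher (7.57%), and without wild-type replicate 3 there were 1 and 1 (1.1%). Without deletion replicate 1, 2 or 3 there was 1 lower and 0 higher each time (0.9%, 0.672% and 1.08%), with 8 or 9 lower and 9 to 12 higher at an unadjusted p under 0.05, a limit that 2488, 2300 and 2463 of the 15330 genes passed in these fits. Each such fit has fewer samples.

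Levels between genes were compared per kilobase of the longest annotated transcript. In wild-type hearts Cgnl1 was highest at 1802 ± 56.6 normalized counts per kilobase (SD, n = 3), followed by Tspan18 at 1357 ± 20.01, Plvap at 1348 ± 169.6, Ramp2 at 1153 ± 181 and Cdh5 at 1067 ± 64.8. Tspan18 and Plvap did not differ beyond their spread, nor did Ramp2 and Cdh5. At the lower end stood Cldn5 at 56.9 ± 15.3, Sox17 at 35.0 ± 8.06, Myct1 at 31.7 ± 7.81, Nostrin at 28.4 ± 1.41 and Apln at 13.9 ± 5.25. Sox17, Myct1 and Nostrin lay within their spread of each other. In deletion hearts Cldn5 stood at 127 ± 11.6 per kilobase and moved from rank 35 to rank 28 of 39. Ramp2 stood at 763 ± 47.0 and moved from rank 4 to rank 7. Nostrin stood at 6.39 ± 0.693 and was the lowest of the list, below Apln at 21.4 ± 6.69.

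**Figure D4:**
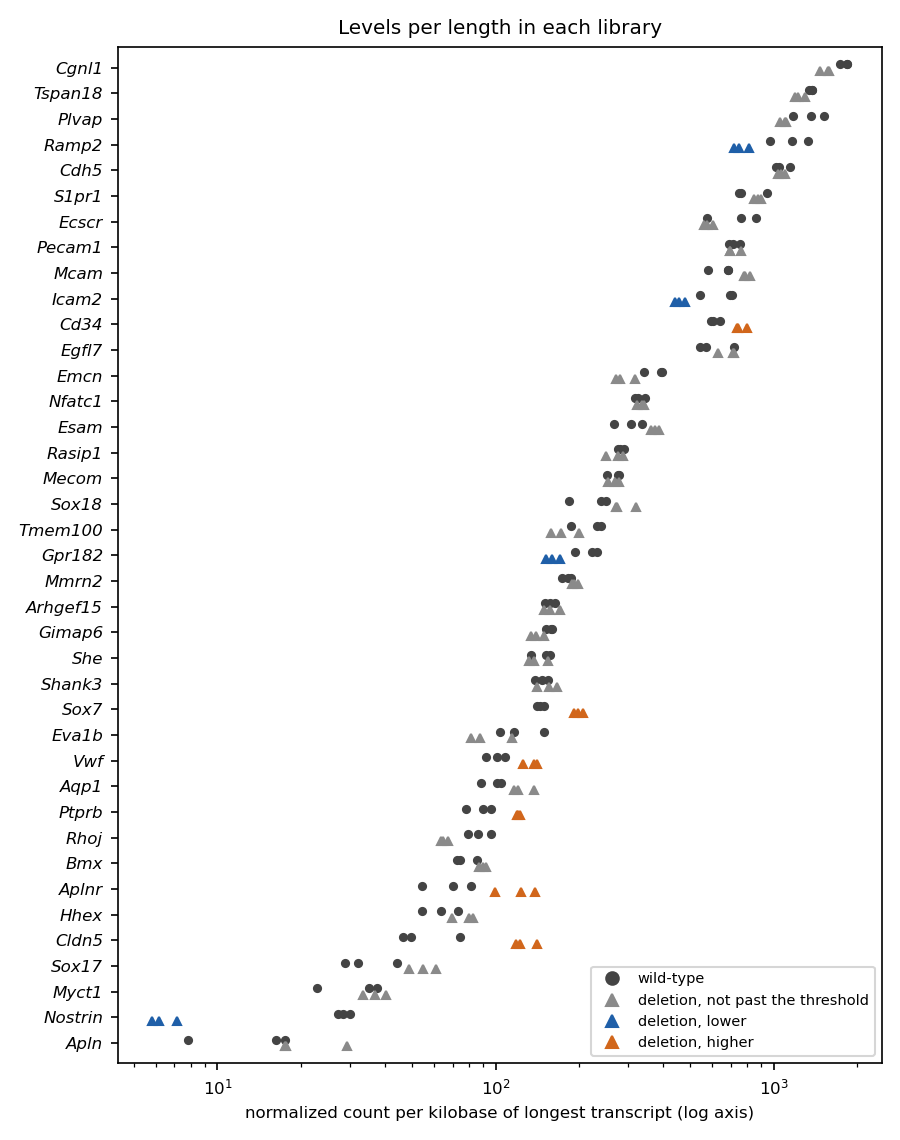
Normalized counts per kilobase of longest transcript (horizontal log axis) for the 39 genes (vertical axis, ordered by wild-type mean), with 3 wild-type libraries as circles and 3 deletion libraries as triangles. Levels run from Apln, with a wild-type mean of 13.9, to Cgnl1, with 1802, and coloured triangles mark the 10 genes past the threshold.

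Transcript length and base composition moved with the calls over all genes: the median longest transcript was 4525 bases with 53.8% GC for genes called higher, 3003 bases with 48.2% GC for genes called lower, and 3180 bases with 49.7% GC for the whole table. In this list the 6 higher genes had a median of 3499 bases, from 1416 for Cldn5 to 11911 for Ptprb, and the 4 lower genes 1643 bases, from 1282 for Icam2 to 3954 for Gpr182. Their median GC content was 50.9% and 53.3%. With a trend in length and GC content removed from each library, limma called 7 lower and 5 higher of the 39 genes, against 3.54% of all genes (2.09% lower and 1.45% higher). Of the 10 calls 9 remained, and Vwf, with a transcript of 8834 bases, did not (0.26, adjusted p = 0.0769, limma). Plvap (−0.38), Cgnl1 (−0.32) and Rhoj (−0.42) were then lower past the threshold. Cldn5 had 1.14 and Nostrin −1.95 after that removal.

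**Figure D5:**
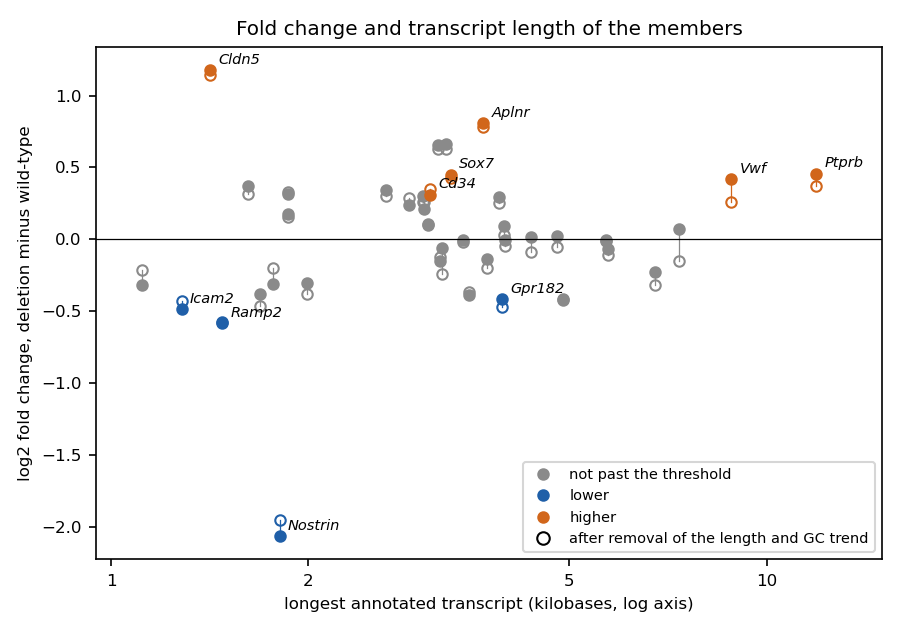
Log2 fold change of the 39 genes (vertical axis) against the length of their longest transcript in kilobases (horizontal log axis); filled points are the deposited scale and open points the values with that trend removed. With the trend removed, Nostrin moves from −2.06 to −1.95, Cldn5 from 1.18 to 1.14, Ptprb from 0.46 to 0.37 and Vwf from 0.42 to 0.26.

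Other endothelial genes, from lists chosen with earlier results of these data known, also moved in both directions. Of 46 such genes, all measured, 6 fell and 3 rose in limma, and the median log2 fold change was 0.02. These calls are 19.6% of the 46, where limma called 3.05% of all genes, 1.5% lower and 1.55% higher. Among 16 receptors and surface genes, Clec14a, an endothelial lectin that binds Mmrn2, had a mean of 965 ± 16.8 in wild-type and rose to 2159 ± 87.4 (SD, n = 3; log2 fold change 1.16, SE 0.0638, adjusted p = 3.91e-05, limma). No omission of a single library ended this call. Eng, a TGF-beta co-receptor, fell from 3541 ± 150.2 to 2638 ± 125 (−0.42), the adhesion receptor Adgrf5 from 841 ± 73.1 to 567 ± 43.5 (−0.57) and Tek, the angiopoietin receptor Tie2 on which VE-PTP acts, from 3401 ± 122 to 2670 ± 72.8 (−0.35). The remaining calls in this group, named after their values were seen, were the VEGF receptor gene Kdr at 0.33 and Robo4 at 1.91. The strand setting of the counting is not given, so reads of Robo4 and of its antisense partner Robo4os may not be told apart. Of the 6 fits that left out a library, Eng kept the call in 4, Adgrf5 in 3, and Tek, Kdr and Robo4 in 2 each. In that order of genes, the highest adjusted p values were 0.0639, 0.0873, 0.0957, 0.160 and 0.102 in limma.

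Of 13 other transcription factor genes 2 fell in limma, as did 1.5% of all genes. Etv2, which starts the endothelial program in mesoderm, dropped from a mean of 137 ± 29.2 to one of 35.2 ± 3.87 normalized counts (SD, n = 3; −1.91) and Ets1 from 2230 ± 95.4 to 1807 ± 62.3 (−0.30, with a highest adjusted p of 0.173 in limma when a library was left out). Erg and Fli1, ETS factors kept on in endothelium, had 0.071 and 0.18. Of 9 arterial genes limma and edgeR called none. At an unadjusted p under 0.05 in limma, 6 were higher and 0 lower (all genes: 10.2% and 11.2%). DESeq2 called 3 higher and 0 lower (all genes: 3.52% and 3.91%). Log2 fold changes of the arterial genes included 0.75 for the Notch ligand Dll4 and 0.61 for the connexin gene Gja4. Of the 9, 7 were above 0 and 2 below, Gja5 at −0.25 and Jag1 at −0.053. Of 8 venous and lymphatic genes limma called 1 lower, as it did 1.5% of all genes. This was Nrp2, which fell from 5901 ± 757 to 3121 ± 446 (−0.92). At an unadjusted p under 0.05 in limma, 2 of the 8 were lower and 3 higher (all genes: 11.2% and 10.2%). DESeq2 called 1 lower and 2 higher (all genes: 3.91% and 3.52%), and 6 of the 8 log2 fold changes were above 0. Etv2 and Nrp2 were called in all 6 fits that left out a library.

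Markers of other cells in these hearts were summed per library. Cardiomyocyte genes (10 of 10 with a row) summed to between 852573 and 966823 normalized counts in wild-type and between 906550 and 985749 in deletion libraries. Red cell genes (9 of 10, Hba-a2 without a row) ranged from 120935 to 354083 and from 86026 to 459726. The groups overlapped for both sums. Megakaryocyte genes (5 of 7) summed to between 476 and 691 in wild-type and between 514 and 819 in deletion libraries, and overlapped. Gp1bb and Gp9 of that list matched no row. Leukocyte genes (3 of 8) summed to between 305 and 334 and between 316 and 335, and Ptprc, Cx3cr1, Adgre1, Spi1 and Fcgr1 matched no row. Epithelial genes (7 of 8, Foxa2 without a row) summed to between 4356 and 6496 and between 5258 and 5729. Neural crest genes (2 of 4, Sox10 and Foxd3 without a row) summed to between 101 and 197 and between 158 and 168.

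The sums of 2 marker lists did not overlap between the groups. Cushion mesenchyme genes (9 of 9) summed to between 10234 and 14335 normalized counts in wild-type and between 5595 and 7090 in deletion libraries. Of these 9 limma called 5 lower, as it did 1.5% of all genes, and 2 had a log2 fold change above 0, up to 0.18. Epicardial genes (8 of 8) summed to between 2814 and 3781 in wild-type and between 4591 and 6170 in deletion libraries. Of these 8 limma called 1 higher, as it did 1.55% of all genes, and 1 had a log2 fold change below 0. A list of 9 general endothelial and endocardial genes, 6 of them also in the list described, overlapped in its sums. These ran from 20378 to 22380 in wild-type and from 21170 to 22062 in deletion libraries. Of the 9 limma called 1 lower, Tek, and 1 higher, Kdr, as it did 1.5% and 1.55% of all genes. Changes in opposite directions offset each other in a sum.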

How the data were processed

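RNA was measured in 6 libraries from hearts at embryonic day 9.5. The kit, per the labels' protocols, was a stranded mRNA kit used on 300 ng of RNA. STAR 2.7.9a, featureCounts (Subread 2.0.1), bcl2fastq 2.20 and DESeq2 1.30.1 are listed in the submitters' processing notes, as are the builds GRCm39 and mm39. Not given in the sources used here were annotation, strand setting and gene filter. For each library the authors deposited a signal for each gene, per the file headers a normalized count, that is reads over the size factor of the library. The table of 6 columns was used and 5 further files were not. Columns were matched to samples by the code in the sample titles. Divided by the worth of a single read, 100% of the values of every column came out whole within 0.01 of a read (the worth was taken from differences between low values, since in 3 columns the lowest value is 2 reads), so reads were recovered and tested with edgeR 4.0.16 (499 genes called) and DESeq2 1.42.0.

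In R 4.3.3, limma 3.58.1 with an intensity trend was fitted to log2(normalized count + 1) of all 15330 genes with a mean of at least 10, which removed no gene. Fold changes are on this scale, which understates changes of low genes. Two-sided p-values were adjusted over all genes by Benjamini-Hochberg, with a threshold of 0.05. The test was tried on simulated counts. The members, lists and alternatives were chosen with earlier results of these data known. Every library's values are given for genes called by limma or edgeR and for the 2 genes of highest mean in each role group, some others were added after their values were seen, and from each further list up to 4 called genes are named by smallest p. Transcript length and GC content come from the longest GENCODE M21 transcript on GRCm38, another build than the authors', and were known for 96.9% of genes and all 39 members. Alternatives covered the pseudocount, filter, scaling, variance model, test, sex, a replicate block, the recorded files, length and GC content, and each library left out.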

Additional observations from a re-analysis of the deposited data

How the results depend on the processing

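Over the 39 genes, 4 were called lower and 6 higher. Both counts stayed within 1.5 times of these values under pseudocounts of 0.5 and 5, a mean of at least 50, no filter, rescaling to equal medians, to totals without haemoglobin or to Pecam1 plus Cdh5, the robust variance and edgeR, although the mean of 50 removed Nostrin and the scaling to Pecam1 plus Cdh5 lost Cd34. No intensity trend gave 1 lower and 0 higher (0.952% of all genes called), DESeq2 8 and 8, a sex term 2 and 4 (2.26%), the female libraries alone 0 and 0 in limma (0.228%; 18 had an unadjusted p under 0.05, as had 12.3% of all genes), and length and GC removal 7 and 5. Of all calls, 50.7% were higher, against 65.3% on totals without haemoglobin and 40.9% after length and GC removal. Leaving out 1 library gave 1 to 8 lower and 0 to 9 higher. The replicate block gave 1 lower and 1 higher (1.34%). The main fit had no block because the replicate numbers are not said to pair embryos. Libraries of the same number did not deviate together (correlations of −0.025, −0.11 and −0.10). With 3 libraries a group, these correlations cannot settle whether embryos were paired. No library correlated best with its own number; the best matches were wild-type 1 with deletion 2 (0.28), 2 with 3 (0.30) and 3 with 1 (0.28). Columns assigned as the files are recorded gave 0 lower and 0 higher, and the log2 fold changes that turned sign were 0.74 for Nostrin, 0.13 for Ramp2, 0.035 for Icam2, 0.065 for Gpr182, −0.19 for Cldn5, −0.027 for Aplnr, −0.24 for Ptprb, −0.15 for Sox7, −0.014 for Vwf, −0.16 for Cd34, −0.42 for Clec14a, 0.065 for Eng, 0.091 for Adgrf5, 0.059 for Tek, 0.45 for Etv2, 0.095 for Ets1, 0.44 for Nrp2 and 0.57 for Hand2. That alternative exchanges 2 libraries of each group; for the other changes the cause was not tested. Among single genes, 139 values of called genes kept direction and call, 70 kept the direction alone and 10 turned. With 10 to 59 reads per library, depth limits the precision of Nostrin.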

Other observations

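The spread between libraries was larger in wild-type hearts. The median coefficient of variation of the 39 genes was 9.31% in wild-type and 6.01% in deletion libraries, and 27 of the 39 genes varied more in wild-type. Over all genes the medians were 9.86% and 6.81%. Wild-type replicate 2 was the lowest of its group for 25 genes and the highest for 4. Apln varied most in both groups, at 37.9% and 31.2%. Sox7, Sox17 and Sox18 are the SoxF factors of the list, and all 3 had every deletion library above every wild-type library, where 12.9% of all genes did.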
